A study of Homo sapiens with 6 samples.

Results

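Luminal keratins, claudins and epithelial factors are 10 genes that mark simple and luminal epithelium: the keratins KRT8, KRT18, KRT19 and KRT7, the claudins CLDN3, CLDN4 and CLDN7, the adhesion molecule EPCAM, and the transcription factors ELF3 and OVOL1. They were picked by gene symbol, with earlier results of the same comparison known, and 9 of the 10 were among the 7150 genes of the authors' deposited table. RNA was sequenced from MDA-MB-231, a human triple-negative breast cancer line of mesenchymal shape, labelled wild type in every sample. The groups were 3 control libraries labelled as having no treatment, with no vehicle named, and 3 libraries from cells given 0.5 µM shikonin, a naphthoquinone of plant origin, over 24 h. The labels write the dose with a lower-case m, taken here to mean micromolar. Separate cultures behind the libraries are not mentioned in the labels, so the listed errors cover the spread between libraries alone, and that spread may be technical.

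Keratins are intermediate filament proteins that polymerise only as pairs of a type I and a type II chain, and KRT8 with KRT18 is the founding pair of simple epithelia. Claudins are membrane proteins with 4 passes through the bilayer whose strands form the tight junction, and EPCAM is a surface glycoprotein of epithelial cells. Epithelial identity is held by transcription factors such as ELF3 and OVOL1 and is opposed by repressors such as SNAI1, which bind E-box sequences in epithelial promoters. Mesenchymal lines such as MDA-MB-231 keep some of these genes active and silence others.

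All 9 listed genes were higher in shikonin-treated cells and 0 were lower. A gene is listed where the authors' DESeq2 test gave an adjusted p under 0.05 together with a difference of more than 1.5-fold. In the authors' deposited table, 50.2% of the about 14252 genes tested were listed, 25.5% as higher and 24.7% as lower. All 9 were at least 2-fold higher, which held for 16.4% of genes tested. With listed genes scaled so that their implied totals match between groups, which lowers each log2 fold change by 0.39, 2181 of the 3630 higher genes and all 9 epithelial genes stayed past both thresholds. Without this scaling 3520 genes were lower, and the number lower with it is unknown, since unlisted genes have no value. Since the genes were chosen with this contrast in view, these counts describe them and test nothing. In the authors' deposited table the 9 had a median log2 fold change of 1.67, against 0.60 over all listed genes and 1.22 over the listed genes that were higher. Because 50.8% of listed genes were higher, the 0.60 lies at the edge of the gap left by the 1.5-fold threshold and is not a typical fold. The table holds a mean over all 6 libraries and no value per library, so whether control and shikonin libraries overlapped cannot be read from it. Group means below are implied: they were solved from that mean and the fold, with 3 libraries weighted equally on each side. In RNA from whole cultures, a larger share of cells with a transcript and more of it per cell cannot be told apart.

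**Figure D1:**
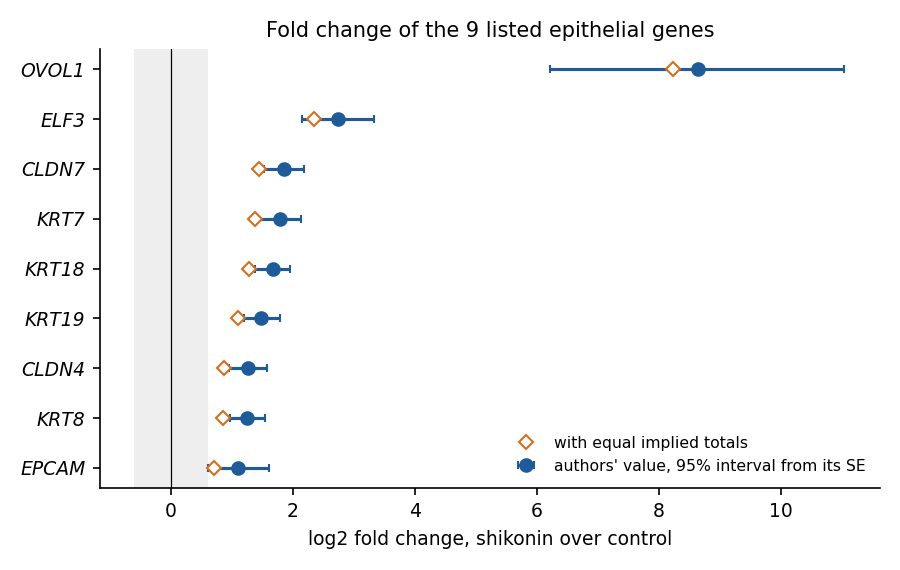
Log2 fold change (shikonin over control) of the 9 listed genes, with 95% intervals from the listed standard error (filled points) and the value with equal implied totals in both groups (open diamonds); the shaded band is a fold below 1.5. OVOL1 stands apart at 8.63, ELF3 follows at 2.73, and the other 7 lie between 1.10 and 1.85.

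The 4 simple-epithelial keratins were 2.38-fold to 3.43-fold higher. KRT8 (ENSG00000170421), a type II keratin, had a mean of 15984 normalized counts over all libraries in the authors' deposited table. Its implied means were 9454 in control and 22514 in shikonin, and by the authors' deposited table its log2 fold change was 1.25 ± 0.15 (standard error), a 2.38-fold difference (95% interval 1.95 to 2.90). KRT18 (ENSG00000111057), the type I partner of KRT8, went from an implied 4278 to 13603 normalized counts and was 3.18-fold higher (2.61 to 3.87) by the authors' deposited table. For KRT19 (ENSG00000171345), a small type I keratin that lacks the usual tail domain, the implied means were 8439 and 23601, a 2.80-fold difference (2.28 to 3.44) by the authors' deposited table. KRT7 (ENSG00000135480), a type II keratin of glandular and ductal epithelium, was 3.43-fold higher (2.68 to 4.40) by the same table, from 3774 to 12949. By point estimate KRT7 and KRT18 had the larger folds and KRT8 the smallest of the 4, and whether these folds differ was not tested.

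Keratin messages were abundant in the control group. Per kilobase of mature transcript, the implied control level was 6071 normalized counts for KRT19, 4447 for KRT8, 2739 for KRT18 and 2151 for KRT7. These levels stood at percentiles 98.8, 98.2, 96.6 and 95.5 of all listed genes. VIM, the gene of the mesenchymal filament protein vimentin, stood at 22001 per kilobase in control and 38354 in shikonin. The order KRT19, KRT8, KRT18, KRT7 was the same in shikonin, at 16979, 10590, 8709 and 7382 per kilobase. The spread of these levels between libraries is not held in the table, so whether neighbours in that order differ beyond it was not tested.

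**Figure D2:**
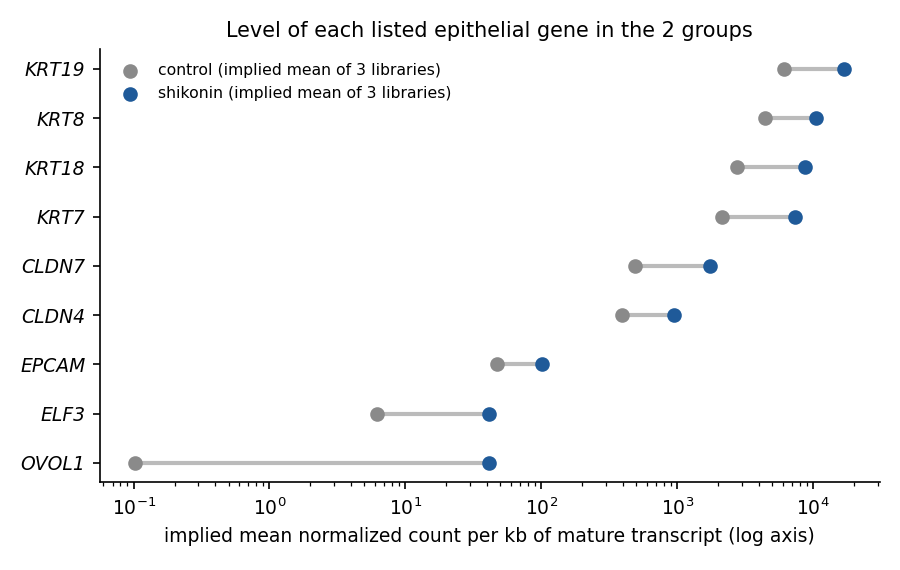
Implied mean normalized count per kilobase of the longest principal transcript (log axis) for each listed gene in control (grey) and shikonin (blue). The 4 keratins lie at 2151 or above in both groups, the claudins between 395 and 1759, and EPCAM, ELF3 and OVOL1 at or below 101.

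Over the 12 listed keratin genes the summed level per kilobase was 17396 in control and 51047 in shikonin. KRT8, KRT18, KRT19 and KRT7 made up 88.6% of it in control and 85.5% in shikonin. The share of KRT8 was 25.6% in control and 20.7% in shikonin, while that of KRT18 was 15.7% and 17.1%. KRT8 stood at 1.62 times KRT18 per kilobase in control and at 1.22 times in shikonin. The ratio of type II to type I level was 0.749 in control and 0.700 in shikonin over these 4 keratins (0.830 and 0.761 with the shortest principal transcripts). Over all 12 listed keratins, KRT81 and KRT86 included, it was 0.926 and 0.944 (0.999 and 0.997). These shares come from group means and have no error.

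**Figure D3:**
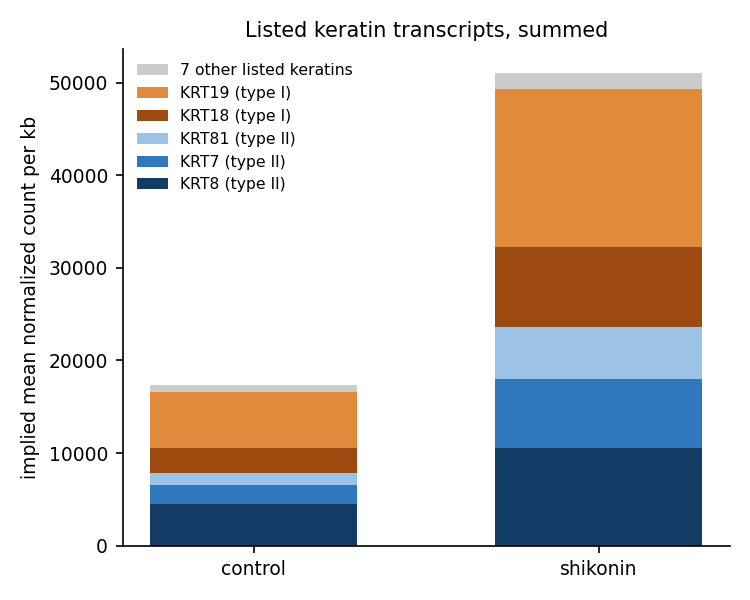
Implied mean normalized count per kilobase summed over the 12 listed keratin genes in control and shikonin, with type II keratins in blue, type I in orange and 7 less abundant keratins in grey. The total is 17396 in control and 51047 in shikonin, and KRT19 is the tallest segment in both bars.

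KRT8 and KRT18 are neighbours on chromosome 12 (GRCh38, GENCODE 29), KRT8 on the minus strand from 52897187 to 52949954 with 9 exons in its principal transcript, and KRT18 on the plus strand from 52948871 to 52952901 with 7. Their annotated ends overlap by 1084 bp, and since it is not stated whether counting used strand, reads there may have been shared. KRT7 lies on the plus strand of the same chromosome from 52232520 to 52252186. Its annotation overlaps that of KRT86, a hair-type keratin on the same strand, and of the pseudogene KRT87P. Both were higher as well in the authors' deposited table, KRT86 by 3.05 ± 0.27 and KRT87P by 2.07 ± 0.45 on the log2 scale. KRT19 lies on chromosome 17 from 41523617 to 41528308, on the minus strand, with 6 exons.

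Copies of KRT8 and KRT18 are scattered through the genome as processed pseudogenes, 50 for KRT8 and 67 for KRT18 by symbol in GENCODE 29. Of these, 1 each was listed. KRT8P12 was 11.5-fold higher (8.13 to 16.4) by the authors' deposited table, from an implied 38.2 to 440 normalized counts. By the authors' deposited table KRT18P17 had a log2 fold change of 8.84 ± 1.26, from an implied 0.161 to 73.5 normalized counts. Exact 50-base stretches shared with KRT8 made up 0.200% of those in KRT8P12, and stretches shared with KRT18 made up 5.77% of those in KRT18P17. Over all annotated pseudogenes together, 9.43% of the 50-base stretches of KRT8 and 14.3% of those of KRT18 were shared. The counts of the parents and copies are uncertain to the extent that reads were assigned between them, and neither the read length nor the counting tool is stated in the labels.

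Both listed claudins were higher, and the third was not listed. CLDN4 (ENSG00000189143), a claudin of tight epithelia, was 2.40-fold higher (1.93 to 2.99) by the authors' deposited table, from an implied 1646 to 3950 normalized counts. CLDN7 (ENSG00000181885), a claudin also found along the lateral membrane, was 3.60-fold higher (2.88 to 4.51) by the same table, from 753 to 2713. CLDN3 was absent from the authors' deposited table, so it either missed a threshold or was not tested, and no value for it is held. CLDN3 and CLDN4 are neighbours on chromosome 7, CLDN3 as a single exon on the minus strand from 73768997 to 73770270 and CLDN4 on the plus strand from 73799542 to 73832693, with 29271 bp between them. CLDN7 lies on chromosome 17, on the minus strand, from 7259903 to 7263983, where ELP5, on the plus strand, and the locus AC003688.1, on the same strand, overlap it. Neither of these was listed.

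The bases before the start sites are shown for the 3 claudins and ELF3, because SNAI1, whose product represses epithelial genes through E-boxes, was 162-fold higher (128 to 205) by the authors' deposited table while 3 of these 4 genes were higher too. Each sequence is the 250 bases upstream of a RefSeq start site (GRCh38.p14), 5′ to 3′ on the gene's strand, with the E-box CACCTG, read on both strands as CACCTG or CAGGTG, in capitals. RefSeq records were matched for 5 of the 10 genes. The starts used for ELF3 (202010587) and CLDN4 (73830996) are not those of their longest principal GENCODE transcripts (202007945 and 73827744), so the bases before the latter were not searched. The KRT8 record also lies at another start, had no match and is not shown.
CLDN7 (chr17:7262479-7262728, minus strand): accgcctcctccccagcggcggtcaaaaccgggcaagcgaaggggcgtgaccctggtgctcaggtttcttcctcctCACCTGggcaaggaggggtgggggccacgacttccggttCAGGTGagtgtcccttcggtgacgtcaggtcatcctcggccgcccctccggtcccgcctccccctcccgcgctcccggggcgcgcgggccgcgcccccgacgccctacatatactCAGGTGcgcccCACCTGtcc
ELF3 (chr1:202010337-202010586, plus strand): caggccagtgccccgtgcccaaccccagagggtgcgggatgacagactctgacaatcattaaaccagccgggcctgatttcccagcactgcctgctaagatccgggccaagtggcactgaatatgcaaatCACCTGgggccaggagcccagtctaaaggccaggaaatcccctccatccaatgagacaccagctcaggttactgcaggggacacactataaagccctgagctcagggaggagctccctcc
CLDN4 (chr7:73830746-73830995, plus strand): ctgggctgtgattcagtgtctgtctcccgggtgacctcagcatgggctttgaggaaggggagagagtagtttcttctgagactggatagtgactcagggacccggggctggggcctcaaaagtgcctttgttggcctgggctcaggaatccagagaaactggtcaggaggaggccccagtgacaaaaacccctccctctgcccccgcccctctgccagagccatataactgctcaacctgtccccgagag
CLDN3 (chr7:73770271-73770520, minus strand): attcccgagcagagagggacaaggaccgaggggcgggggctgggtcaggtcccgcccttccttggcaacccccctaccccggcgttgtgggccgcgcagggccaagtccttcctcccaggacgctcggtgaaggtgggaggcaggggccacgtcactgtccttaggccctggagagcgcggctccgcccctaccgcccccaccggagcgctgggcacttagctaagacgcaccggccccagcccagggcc

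CLDN7 carried 4 matches to this E-box, starting 174, 135, 20 and 9 bases before its start site, and ELF3 carried 1, starting 120 bases before its own. CLDN4 and CLDN3 had 0. Among all RefSeq promoter windows of this length, 17.5% held at least 1 match and 0.122% held 4 or more. The cut of 4 equals the count in the printed CLDN7 sequence, so the 0.122% describes that sequence and tests nothing. A second CLDN7 start site, at 7263213, had 0. Matches to the GC box GGGCGG, read on both strands, numbered 4 in CLDN3, 1 in CLDN4, 1 in the printed CLDN7 sequence and 0 in ELF3, and 42.6% of windows held at least 1. The TATA element TATAAA, read on both strands, was found once in ELF3 and in 10.7% of windows. The heat shock element GAANNTTC, held by 5.78% of windows, and the grainyhead-type site AACCNGTT, held by 1.49%, were found in none of the 4 printed sequences on either strand. The antioxidant-type element TGACNNNGC, read on both strands, had 2 matches in CLDN3 and 0 in the other 3, and 10.9% of windows held at least 1. A match in letters is not evidence of binding, and a window without one says nothing of the factor.

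EPCAM (ENSG00000119888) had the smallest point estimate of the 9. Its implied means were 80.8 and 174 normalized counts, and it was 2.15-fold higher (1.52 to 3.05) by the authors' deposited table, with an interval that ends just above the 1.5-fold threshold. EPCAM lies on chromosome 2, on the plus strand, from 47345158 to 47387601, with 9 exons. At 46.9 normalized counts per kilobase in control it stood at percentile 23.2 of the listed genes, far below the keratins. Differences in fold between these genes were not tested, since the table does not hold how their errors go together.

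The transcription factors had the larger point estimates and, in control, the lower levels. ELF3 (ENSG00000163435), an ETS-family factor of epithelial cells, had, by the authors' deposited table, a log2 fold change of 2.73 ± 0.30, a 6.65-fold difference (4.42 to 10.0) from an implied 30.7 to 204 normalized counts. ELF3 lies on chromosome 1 from 202007945 to 202017188 on the plus strand, where the antisense gene ELF3-AS1 overlaps it and was not listed. OVOL1 (ENSG00000172818), a zinc finger factor that represses mesenchymal genes, had, by the authors' deposited table, a log2 fold change of 8.63 ± 1.23, the fifth largest increase of all listed genes. Its implied mean was 124 normalized counts in shikonin and 0.313 in control, which is less than 1 count over the 3 control libraries, so its fitted fold rests on a group at or near 0. Set against a floor of 3 counts over the control group, a mean of 1 normalized count, OVOL1 was 124-fold higher. OVOL1 lies on chromosome 11 from 65787022 to 65797219, on the plus strand, and its antisense neighbours OVOL1-AS1 and AP001266.1 were not listed.

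Direction in this comparison went with transcript length over all listed genes, and the epithelial genes were mostly short. KRT19 (1390 nt) and CLDN7 (1542 nt) fell in the decile of listed protein-coding genes from 1086 to 1557 nt, of which 96.8% were higher with a median log2 fold change of 1.14. Within it KRT19 stood at percentile 76.0 of fold change and CLDN7 at 86.8. KRT18 (1562 nt), EPCAM (1724 nt) and KRT7 (1754 nt) fell in the next decile, of which 91.2% were higher with a median of 1.00, and stood at percentiles 81.1, 56.8 and 83.2. KRT8 (2126 nt) stood at percentile 71.0 of a decile with 81.4% higher and a median of 0.93. For OVOL1 (3034 nt) 63.9% of its decile was higher and it stood at percentile 100. The longest principal transcripts of CLDN4 (4163 nt) and ELF3 (4994 nt) put them in deciles with 32.1% and 16.9% higher, at percentiles 85.4 and 98.4. Their shortest principal transcripts, 1831 nt and 2044 nt, put both in a decile with 79.2% higher, at percentiles 73.4 and 93.6. All 9 lay above the median of their length decile under both lengths, but they were chosen with these values in view. That median was negative for CLDN4 (-0.72) and ELF3 (-0.85) by longest transcript and for OVOL1 (-0.67) by shortest. Any gene listed as higher lies above a negative median, so the position of these genes tests nothing. The part of length in the differences of the 9 was not tested.

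**Figure D4:**
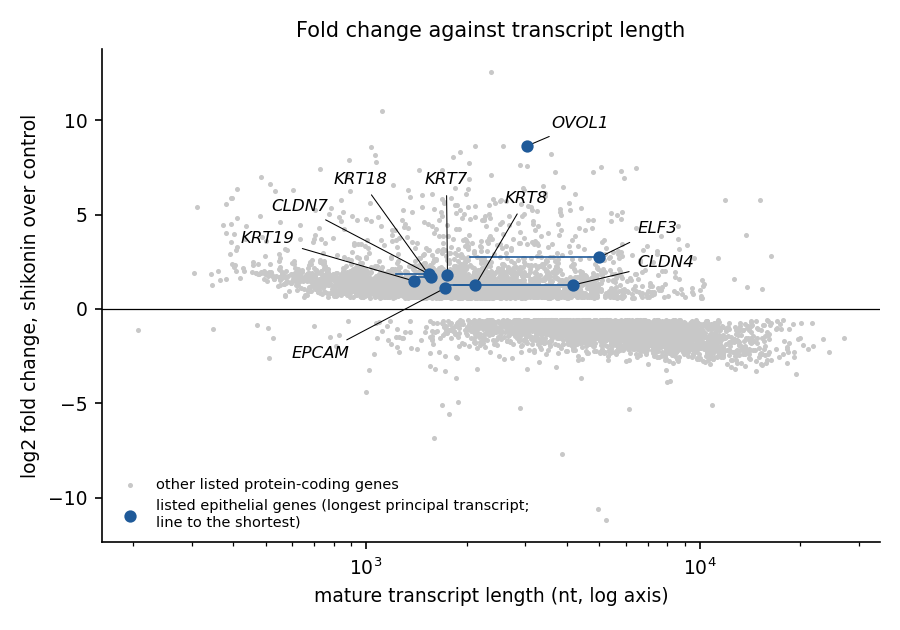
Log2 fold change (shikonin over control) against mature transcript length (log axis) for the listed protein-coding genes, with the 9 epithelial genes in blue at their longest principal transcript and a line to the shortest. Most listed genes up to 1966 nt are higher. KRT19, CLDN7, KRT18, EPCAM and KRT7 lie among them, while OVOL1 and ELF3 lie in the upper part of the cloud at their lengths.

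The other listed genes of the epithelial programme included genes of both directions. Of 28 other keratins, 8 were listed as higher, 0 as lower and 20 were not listed. The share higher was 28.6%, near the 25.5% of all genes tested, and the share lower was 0%, beside 24.7% of all genes tested. The authors' deposited table gave those 8 a median log2 fold change of 2.62. KRT4, KRT13 and KRT16, keratins of stratified or stressed epithelia, had, by the authors' deposited table, log2 fold changes of 8.61 ± 1.27, 3.88 ± 1.71 and 3.10 ± 0.63. Their implied control means were 0.161, 0.573 and 5.26 normalized counts, at or near 0. KRT81, a hair-type keratin named after its values were seen, was 4.55-fold higher (3.53 to 5.85) by the authors' deposited table, from an implied 2384 to 10836 normalized counts. Per kilobase it stood at 1236 in control, below the 4 simple keratins. KRT81 shares 37.6% of its 50-base stretches with KRT86, so the values of both are uncertain.

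Of 37 other claudins and tight junction genes, 7 were listed as higher and 5 as lower, 18.9% and 13.5% of the list beside 25.5% and 24.7% of all genes tested. MARVELD3, TJP3 and CRB3, which encode a junction membrane protein, a scaffold and a polarity protein, had log2 fold changes of 5.57 ± 1.07, 3.86 ± 0.81 and 3.68 ± 0.82 in the authors' deposited table, from implied control means of 0.873, 2.33 and 2.34 normalized counts. MAGI1, TJP1 and MARVELD1, among which TJP1 encodes the scaffold ZO-1, were lower by 3.00-fold (2.31 to 3.90), 2.93-fold (1.34 to 6.42) and 2.65-fold (2.10 to 3.34) by the authors' deposited table. MAGI1 (4791 nt), TJP1 (7950 nt) and MARVELD1 (3221 nt) fell in length deciles of which 16.9%, 7.37% and 63.9% of genes were higher. Their implied control means were 998, 539 and 1229 normalized counts. Among the higher genes F11R, which encodes the junctional adhesion molecule JAM-A, was also abundant, with an implied 665 normalized counts in control and 1247 in shikonin; it was named after its values were seen. Among the 12 listed genes, 3 of those higher and 5 of those lower had a mean of at least 100 normalized counts.

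Listed adherens junction and desmosome genes were mostly lower. Of 23, 1 was listed as higher and 7 as lower, 4.35% and 30.4% of the list beside 25.5% and 24.7% of all genes tested, and the authors' deposited table gave those 8 a median log2 fold change of -1.0. AFDN, DSP and CTNND1, which encode afadin, desmoplakin and p120-catenin, were lower by 2.74-fold (2.16 to 3.47), 2.35-fold (1.77 to 3.11) and 2.10-fold (1.64 to 2.69) by the authors' deposited table. Desmoplakin is the protein that ties keratin filaments to desmosomes, and its message went from an implied 5014 to 2134 normalized counts while those of KRT8 and KRT18 went up. AFDN, DSP and CTNND1 have transcripts of 5962, 9796 and 6313 nt, in deciles of which 4.48% to 11.7% of genes were higher. NECTIN4, the gene that was higher, had, by the authors' deposited table, a log2 fold change of 4.04 ± 1.60 from an implied control mean of 0.588. CDH1, the E-cadherin gene, was not listed.

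**Figure D5:**
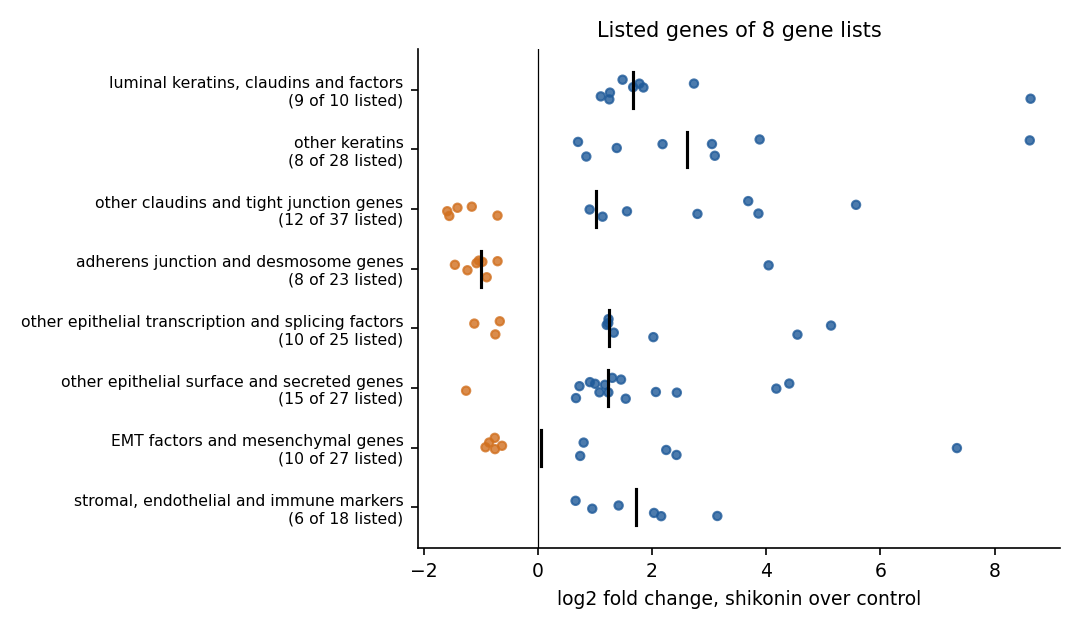
Log2 fold change (shikonin over control) of the listed genes in 8 gene lists, each point a gene (blue higher, orange lower) and each bar the list's median. Points lie on the higher side for the luminal genes, the other keratins and the stromal, endothelial and immune markers. They lie mostly there for epithelial surface and secreted genes. Tight junction genes, epithelial factors and mesenchymal genes have points on both sides. Adherens junction and desmosome genes lie mostly on the lower side.

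Of 25 other epithelial transcription and splicing factors, 7 were higher, 3 lower and 15 not listed. The share higher was 28.0%, near the background of 25.5%, and the share lower was 12.0%, beside 24.7% of all genes tested. The median log2 fold change from the authors' deposited table was 1.24. FOXA1, a pioneer factor of luminal cells, was 23.4-fold higher (9.71 to 56.2) by the authors' deposited table, from an implied 2.91 to 67.9 normalized counts. SPDEF, an ETS factor of secretory epithelium, was 4.06-fold higher (3.09 to 5.34) by the authors' deposited table and moved at a higher level, from 799 to 3249. ESRP1, an epithelial splicing regulator, had, by the authors' deposited table, a log2 fold change of 5.13 ± 1.32 from an implied control mean of 0.586. Other ETS factors went the other way, EHF of the same subfamily as ELF3, and ELF1 and ELF4 of another. EHF, ELF1 and ELF4 were lower by 2.16-fold (1.73 to 2.70), 1.67-fold (1.31 to 2.15) and 1.59-fold (1.23 to 2.05) by the authors' deposited table. OVOL2, GRHL2 and GATA3 were among those not listed.

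Among 27 other epithelial surface and secreted genes, 14 were higher and 1 was lower. The share higher was 51.9% and the share lower 3.7%, beside 25.5% and 24.7% of all genes tested. The median log2 fold change from the authors' deposited table was 1.23. RAB25 and S100A14 had log2 fold changes of 4.40 ± 1.56 and 4.18 ± 0.98 in the authors' deposited table, from implied control means of 0.576 and 1.76 normalized counts. AGR2, which encodes a secretory-pathway disulfide isomerase, was 5.40-fold higher (3.89 to 7.51) by the authors' deposited table, from 73.3 to 396. ITGA6, an integrin gene of the basal surface, was 2.39-fold lower (1.97 to 2.90) by the authors' deposited table. Its transcript of 5618 nt falls in a length decile of which 11.7% of genes were higher. RAB25 (1110 nt), S100A14 (1218 nt) and AGR2 (1778 nt) fell in deciles with 96.8%, 96.8% and 91.2% of genes higher. The part of length in this list was not tested.

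Of 27 EMT factors and mesenchymal genes, 5 were higher and 5 lower, 18.5% each way beside 25.5% and 24.7% of all genes tested. SNAI1 went from an implied 50.8 to 8217 normalized counts, while ZEB1, another repressor of epithelial genes, was 1.69-fold lower (1.26 to 2.25) by the authors' deposited table. By the authors' deposited table, S100A4 was 5.38-fold higher (4.05 to 7.16) and SPARC 4.75-fold higher (1.91 to 11.8), whereas ITGA5 and FN1, the fibronectin receptor chain and fibronectin, were 1.89-fold (1.55 to 2.29) and 1.80-fold (1.34 to 2.43) lower. VIM was 1.74-fold higher (1.47 to 2.07) by the authors' deposited table. ZEB1 (5423 nt), ITGA5 (4444 nt) and FN1 (7898 nt) fell in length deciles of which 11.7%, 16.9% and 7.37% of genes were higher. For S100A4 (600 nt), SPARC (3701 nt) and VIM (2135 nt) these shares were 97.7%, 32.1% and 81.4%. The part of length was not tested. Vimentin and keratin messages were thus both higher, but with equal implied totals the log2 fold change of VIM was 0.41, below the 1.5-fold threshold, and 3 of the 5 higher genes of this list stayed past the thresholds. CDH2, CD44 and AXL were not listed.

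Of 13 luminal markers 9 were listed, all higher, but 8 of these are the epithelial genes described above, and the only addition is FOXA1; CLDN3, CDH1, GATA3 and ESR1 were not listed. Of 5 basal markers only KRT17 was listed, where the authors' deposited table has a log2 fold change of 0.85 ± 0.33. Of 17 markers of stromal, endothelial and immune cells, 5 were listed, also all higher: CD14, CD68, LYZ, PDGFRB and PECAM1. A list of 18 such genes, ACTA2 among them, had 6 higher and 0 lower, with a median log2 fold change of 1.72. The share higher was 33.3%, beside 25.5% of all genes tested, and 24.7% of all genes tested were lower. The authors' deposited table gave increases of 4.47-fold (3.52 to 5.68) for CD14, 4.10-fold (2.83 to 5.94) for PECAM1 and 8.83-fold (3.39 to 23.0) for LYZ. The level of LYZ was low, an implied 4.09 normalized counts in control and 36.1 in shikonin. CD14 (1886 nt), LYZ (1530 nt) and PECAM1 (6831 nt) fell in length deciles with 91.2%, 96.8% and 7.37% of genes higher. The part of length in these markers was not tested. The summed implied level of the 5 listed markers was 3262 normalized counts in control and 6554 in shikonin, most of it CD68. The other 12, COL1A1, COL1A2, COL3A1, DCN, LUM, PDGFRA, CDH5, VWF, KDR, PTPRC, CD3E and MS4A1, were not listed and have no value. The part of other cell types in the epithelial values was not tested.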

How the data were processed

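Total RNA of MDA-MB-231 cells was sequenced in 3 control and 3 shikonin libraries, built per the labels' protocols with a NEBNext Ultra kit. Tools named in the submitters' processing notes are HISAT2 2.0.5, fastp and DESeq2, with the hg38 build. How reads were counted, on which annotation and whether by strand were details not given in the sources used here. Per the file headers, the authors' deposited table holds a mean normalized count (a signal over all libraries after size factors), a log2 fold change with its standard error, a Wald score, a p-value and an adjusted p-value. The positive sign, marked "up" by the authors, is read as higher in shikonin. The table has 0 columns of per-sample values, so depth is unknown here, and the planned edgeR fits could not be run; the authors' DESeq2 values were used as they stand.

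The 10 genes and the 7 other lists were chosen with earlier results of these data known. Computed here (Python 3.11.15, pandas 2.3.3) were 95% normal intervals from the standard error, implied group means, the number of genes tested (from p, rank and adjusted p) and values with equal implied totals, which lower each log2 fold change by 0.39. The formulas for means and test number were checked on simulated data. GENCODE 29 (GRCh38) gave positions and lengths, for 7142 of 7150 genes by Ensembl identifier; the longest APPRIS principal transcript was used, the shortest as an alternative. Named genes were the 10 members and, from each other list, the 3 largest increases and decreases; pseudogenes and overlapping genes of members; and the cell type markers. No gene set test was run.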

Additional observations from a re-analysis of the deposited data

How the results depend on the processing

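The count of 9 higher and 0 lower epithelial genes was also 9 and 0 with a fold of at least 2, with an adjusted p below 0.001, with equal implied totals and with a 95% interval wholly beyond 1.5-fold. It was 8 when a mean of 100 or more was required, where OVOL1 left. After the data were seen, 3 settings were added: it was 8 with an implied control mean of at least 10, 6 with an interval wholly beyond 2-fold, and 6 with equal implied totals and a fold of at least 2, where KRT8, CLDN4 and EPCAM left. With equal implied totals the log2 fold changes of the 9 ranged from 0.71 (EPCAM) to 8.23 (OVOL1), and 6 of them moved beyond their 95% interval. The same scaling left 5 of the 8 other keratins above the thresholds. It moved the median of the mesenchymal list from 0.06 to -0.34, by the fixed shift applied to every gene. With 5 genes higher and 5 lower, that median lies in the gap below the 1.5-fold threshold, where no gene can be listed, so its sign says nothing of those genes. At the ends of the interval of its fold, the implied control mean of OVOL1 was 1.65 and 0.0592 normalized counts. No paired analysis was possible because the table holds no value per library; for the same reason the fits that leave out a replicate, the edgeR fit and the fit with a replicate block were not run. Unlisted genes have no value, so every count sees only genes past the authors' thresholds.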

Other observations

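Most listed genes next to the 10 epithelial genes were higher too, but many neighbours were not listed and have no value. Near CLDN7, for example, 7 genes were listed where 19 protein-coding genes were annotated, and near KRT19 3 were listed where 11 were annotated. Within 100 kb of the 10 epithelial genes, 26 other genes were listed, 23 higher and 3 lower, beside 50.8% higher over all listed genes. Around KRT19 on chromosome 17 these were KRT13, KRT16 and KRT17, all higher, and around KRT7 on chromosome 12 they were KRT80, KRT81, KRT86 and KRT87P, all higher. Near CLDN3 and CLDN4 on chromosome 7 stood VPS37D, DNAJC30, BUD23, ABHD11 and TMEM270, all higher. Their log2 fold changes were 1.14 ± 0.45, 0.68 ± 0.20, 0.85 ± 0.16, 0.93 ± 0.21 and 5.16 ± 2.32 in the authors' deposited table. The 3 lower neighbours were AP5B1 near OVOL1, at -1.98 ± 0.18 in the authors' deposited table, and NEURL4 and KCTD11 near CLDN7, at -0.92 ± 0.16 and -0.82 ± 0.22. These neighbours were named after their values were seen, and no test of the neighbourhood was run. All listed neighbours of KRT7, KRT8 and KRT19 were keratin genes or a keratin pseudogene. BUD23 (1230 nt), ABHD11 (1483 nt) and CFL1 (1878 nt) fell in length deciles with 96.8%, 96.8% and 91.2% of genes higher. For DLG4 (3446 nt), also higher, this share was 32.1%, and for AP5B1 (4811 nt) it was 16.9%. The part of length in the neighbours was not tested.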
